A study of Mus musculus with 4 samples.

Results

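The stathmin family was described in mouse embryonic stem cells (ESCs) with and without REST, a zinc-finger repressor that binds a DNA element called RE1 near many neuronal genes. Its members were taken by symbol: the rows named Stmn1, Stmn2, Stmn3 and Stmn4 are 4 of the 26301 genes counted. Total RNA was sequenced from N6 cells, the WT ESC line, and N8 cells, the REST-/- (here Rest-/-) line, with 2 libraries described as biological replicates for each genotype. Each genotype was thus represented by 1 line, so a difference between the genotypes and a difference between the lines cannot be told apart. Cells of both lines were kept undifferentiated in serum with LIF on irradiated feeder fibroblasts, and the feeders were removed by passaging on gelatin before RNA was taken.

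Stathmins are small phosphoproteins that bind soluble tubulin dimers and promote the shrinkage of microtubules, an activity that phosphorylation switches off. Stmn1 (oncoprotein 18) is cytosolic and is made by many dividing cells. Stmn2 (SCG10), Stmn3 (SCLIP) and Stmn4 (RB3) are mainly neuronal and carry an N-terminal extension that palmitoylation anchors to Golgi and vesicle membranes, and the RE1 of Stmn2 was one of the elements through which REST was first identified.

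Between 22293966 and 30953863 reads per library were counted on genes. Levels are given in CPM, each count scaled by edgeR's TMM method to a common library size, where 3 counts, taken as the floor, correspond to 0.0969 to 0.135 CPM. All 4 members passed edgeR's filterByExpr and were among the 15444 genes tested. For Rest itself the counts were 7908 and 6233 (WT) and 4244 and 3890 (Rest-/-), and its log2 fold change of -0.52 (standard error 0.13) had an adjusted p of 0.526 by the quasi-likelihood test of edgeR. These counts are sums over the gene and do not show which exons the reads came from.

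Because REST acts through RE1 elements, the mm9 genome (NCBIM37) was searched on both strands for the RE1 motif. It reads CAG, any base, ACC, any 2 bases and GGACAG, so that 12 of its 15 positions are informative. Full matches numbered 1304 in the genome, and 20339 sites matched at 11 or more positions. The matches within 50 kb of a stathmin start site are shown from 5′ to 3′ on the strand of the match, with flanking bases. Capitals mark informative positions that matched, and substitutions count from 1 at the first base of the motif, with the motif's base first.
Stmn2, chr3:8508232-8508246, + strand, 1288 bp upstream, 12 of 12: gccatttCAGcACCacGGACAGcgcttct
Stmn2, chr3:8554270-8554284, + strand, intron, 44750 bp downstream, 11 of 12: acatctcCAGcACCtgGGACAaagggagg
Stmn3, chr2:181048910-181048924, - strand, first exon, 288 bp downstream, 11 of 12: ccgccgcCAGcACCatGGcCAGcaccgta
Stmn1, chr4:133981857-133981871, - strand, 42371 bp upstream, 12 of 12: aggcaaaCAGgACCtgGGACAGaggtggg
Stmn1, chr4:133987162-133987176, - strand, 37066 bp upstream, 11 of 12: ctcagcaCAGtACCtgGcACAGaagtgaa
Stmn1, chr4:134043902-134043916, - strand, 18252 bp downstream, 12 of 12: gtcccgcCAGtACCcaGGACAGtactggc

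Stmn2 held the full match closest to a stathmin start site, and the match in Stmn3 lay in its first exon, across the border between the 5′ untranslated region and the coding sequence. The Stmn3 site departed from the motif by A12C, the intronic site of Stmn2 by G15A and the upstream partial site of Stmn1 by G11C. Stmn4 had no match within 50 kb of any of its 8 annotated start sites; its nearest site with 11 matching positions lay 65538 bp away. For comparison, 0.886% of 22350 protein-coding genes had a full match within 2 kb of a start site, as Stmn2 did, and 5.28% of 22367 had a match at 11 or more positions within 1 kb, as Stmn3 did. Within 50 kb these shares were 7.58% for full matches and 63.6% for 11 or more positions. A match describes the letters of the genome alone. The Stmn3 site lies in a region on the study's list of REST-bound regions with repeated RE1 motifs. That list was read here in part and is limited to such regions, so nothing follows for the sites not found on it.

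**Figure D1:**
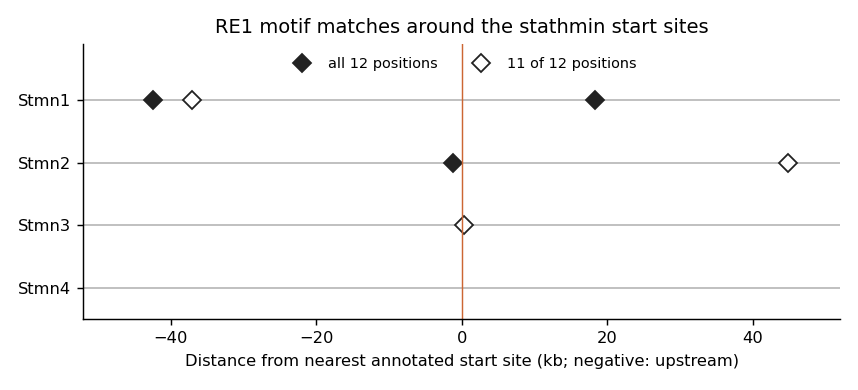
RE1 motif matches around the start sites of the 4 stathmin genes, as distance in kb from the nearest annotated start site, with negative values upstream. Filled diamonds match all 12 informative positions and open diamonds 11 of 12. Stmn2 has a full match 1288 bp upstream, Stmn3 an 11 of 12 match 288 bp downstream, and Stmn4 has none in the 50 kb on either side.

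Of the 4 members, Stmn3 was the one whose libraries separated by genotype. It was 6.02-fold higher in Rest-/- than in WT ESCs, while the Stmn1, Stmn2 and Stmn4 values of the genotypes overlapped. Both Rest-/- libraries stood above both WT libraries for 1 of 4 members, beside 16.5% of the 15444 genes tested, a count too small to be a result about the family. By the quasi-likelihood test of edgeR, with Benjamini-Hochberg adjustment over all genes tested, no member had an adjusted p under 0.05, beside 0.0518% of genes called higher and 0.00648% called lower. At an unadjusted p under 0.05 the count was 1 of 4 higher (Stmn3), beside 3.85% of genes higher and 2.86% lower. With edgeR's exact test, 1 of 4 members (Stmn3) was called higher, beside 1.16% of genes with tag-wise and 1.59% with common dispersion. DESeq2 called the same member higher, beside 1.17% of genes.

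Stmn3, on chromosome 2 from 181041164 to 181049205 on the minus strand, encodes SCLIP. WT libraries gave 382 and 303 counts, and Rest-/- libraries 1723 and 1681. The levels were 12.3 and 11.3 CPM in WT and 66.7 and 75.9 CPM in Rest-/- ESCs. Both Rest-/- libraries were thus several-fold above both WT libraries, and the libraries of each genotype lay close together. The WT mean was 11.8 ± 0.726 CPM (SD, n = 2) and the Rest-/- mean 71.3 ± 6.51 CPM (SD, n = 2). The log2 fold change was 2.59 (standard error 0.17), and the 95% interval of the fold ran from 4.39 to 8.27. The adjusted p was 0.0679 in edgeR's quasi-likelihood test, above the threshold of 0.05. It was 2.87e-12 in edgeR's exact test with tag-wise dispersion and 5.86e-19 in DESeq2. With no filter beyond 1 count in total, it was 0.0197 in edgeR's quasi-likelihood test, which then called 0.237% of genes higher.

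By p-value Stmn3 ranked 11 of the 15444 genes, and by log2 fold change it ranked 99, with 0.635% of genes above it. Its mean level moved from percentile 40.3 of the genes tested in WT to percentile 76.8 in Rest-/- ESCs. Set side by side within a replicate number, as differences of log2(CPM + 0.5), Stmn3 was higher in Rest-/- by 2.39 for replicate 1 and by 2.69 for replicate 2. When each library was left out in turn, the log2 fold change of Stmn3 stayed between 2.49 and 2.69. In each of those fits 1 genotype had 1 library, so the spread came from the other genotype alone.

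The genes beside Stmn3 on chromosome 2 differed less. Rtel1, which encodes a telomere helicase and lies 5239 bp away, was at -0.13 on the log2 fold change (standard error 0.28). Gmeb2, 18424 bp away on the other side, was at -0.06 (standard error 0.15). Both were above 40 CPM in WT ESCs, at 175 and 46.7 CPM. The larger value on this stretch thus belonged to Stmn3, and no counted gene overlapped it.

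**Figure D2:**
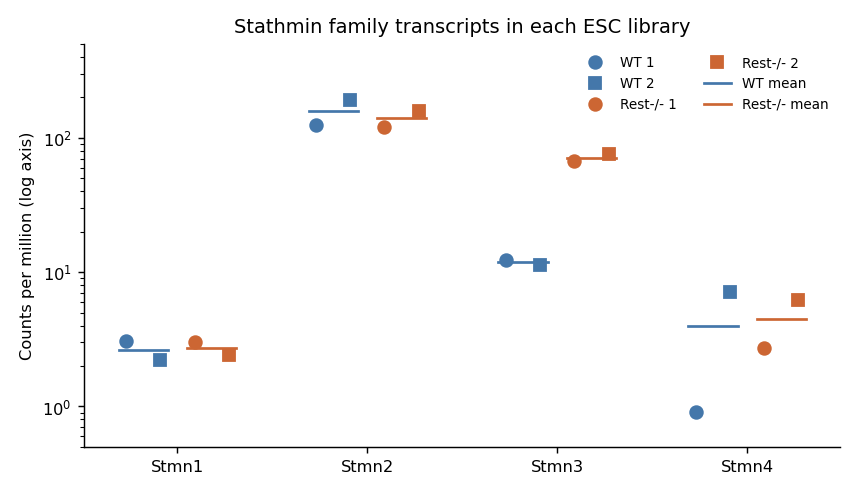
Level of each stathmin gene in CPM (log axis) in the 4 ESC libraries. Circles are replicate 1, squares replicate 2, blue is WT, orange is Rest-/-, and bars are the mean of 2 libraries. The Stmn3 libraries separate at 12.3 and 11.3 CPM in WT against 66.7 and 75.9 CPM in Rest-/-; those of Stmn1, Stmn2 and Stmn4 overlap.

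Stmn2, on chromosome 3 from 8509527 to 8561604 on the plus strand, encodes SCG10, a growth-cone protein of developing neurons. Counts of 3847 and 5161 were found in WT and of 3097 and 3522 in Rest-/- libraries. The levels were 124 and 193 CPM in WT and 120 and 159 CPM in Rest-/- ESCs, so the genotypes overlapped and the higher WT library was the highest of the 4. Stmn2 was an abundant transcript already in WT ESCs, at percentile 90.2 of the genes tested. Its WT mean was 158 ± 48.4 CPM (SD, n = 2) and its Rest-/- mean 139 ± 27.7 CPM (SD, n = 2). The difference was -0.18 on the log2 scale (standard error 0.28; adjusted p 1.00, edgeR's quasi-likelihood test). The 95% interval of its fold ran from 0.529 to 1.46, so the data do not show that its level was the same in both genotypes. Within a replicate number, as differences of log2(CPM + 0.5), Stmn2 was at -0.05 for replicate 1 and at -0.28 for replicate 2.

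Stmn2 is 1 of 149 tested genes with a full RE1 match within 2 kb of a start site. The median log2 fold change of those 149 genes was 0.75, beside -0.005 over all genes tested, and 81.9% had a value above 0, beside 49.2% of all genes. Both Rest-/- libraries were above both WT libraries for 61.7% of them, beside 16.5% of all genes. The filter on low counts bears on these shares, since 25 of the 149 genes reached its level of 0.381 CPM in both Rest-/- libraries but not in both WT libraries, and 4 the other way round. Among the 127 with a mean of at least 1 CPM over the 4 libraries, the median was 0.64 and 63.8% had both Rest-/- libraries above both WT libraries, beside 16.4% of all such genes. Within this group, 135 genes had a higher log2 fold change than Stmn2 and 13 a lower one. The group's median WT level was 5.41 CPM, beside 20.7 CPM for all genes tested, and 8 of its genes were above Stmn2 in WT ESCs. For Stmn3, the group set by the same letters is the 874 tested genes with 11 or more matching positions within 1 kb. Whether REST binds near those genes was not asked, while the Stmn3 site lies in a region the study lists as REST-bound. The median log2 fold change of the 874 genes was 0.06, with 58.4% of values above 0. Both Rest-/- libraries were above both WT libraries for 28.0%. Of these, 37 had a higher log2 fold change than Stmn3 and 836 a lower one. These are descriptions of groups defined by sequence, with no test.

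**Figure D3:**
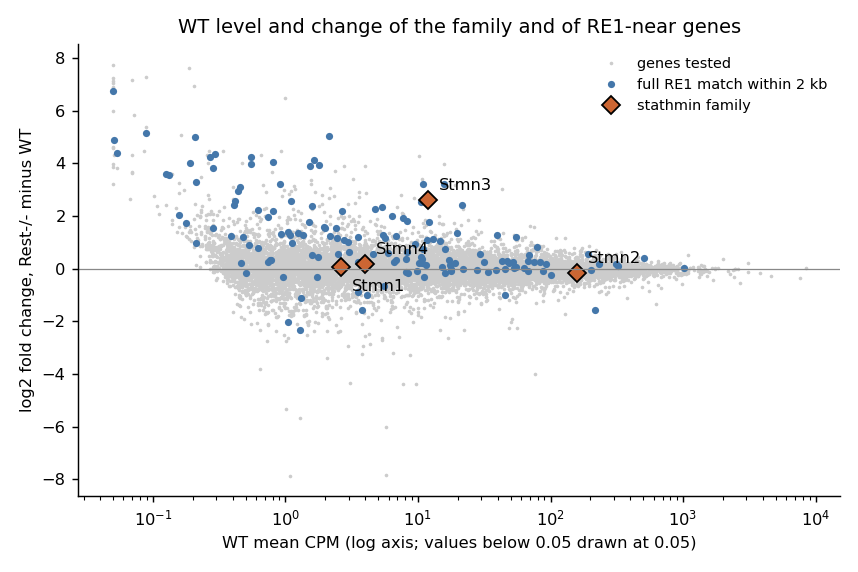
Log2 fold change (Rest-/- minus WT) against the mean WT level in CPM (log axis) for the 15444 genes tested, with genes under 0.05 CPM drawn at 0.05. Grey points are all genes, blue points genes with a full RE1 match within 2 kb, and orange diamonds the stathmins. Stmn2 lies at the abundant end near 0, at -0.18, and Stmn3 lies at 2.59, a value that 0.635% of genes exceed.

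Stmn4, on chromosome 14 from 66963133 to 66980517 on the plus strand, encodes RB3. Its counts were 28 and 190 in WT against 71 and 137 in Rest-/- libraries. The levels were 0.904 and 7.09 CPM in WT and 2.75 and 6.18 CPM in Rest-/- ESCs. The lowest and the highest value were both WT libraries, and both Rest-/- libraries fell between them. The means of 4.0 ± 4.38 CPM (SD, n = 2) and 4.47 ± 2.43 CPM (SD, n = 2) differed by far less than the spread between replicates. On the log2 scale the difference was 0.16 (standard error 1.02; adjusted p 1.00, edgeR's quasi-likelihood test), and the 95% interval of its fold ran from 0.173 to 7.23. That interval includes the fold measured for Stmn3. Without WT replicate 1 the log2 fold change was -0.67, and without WT replicate 2 it was 2.30.

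Stmn1, on chromosome 4 from 134024235 to 134029758 on the plus strand, encodes stathmin itself. Just 95 and 59 reads were counted in WT and 78 and 54 in Rest-/- libraries. The levels were 3.07 and 2.20 CPM in WT and 3.02 and 2.44 CPM in Rest-/- ESCs, with the Rest-/- values between the WT values. The genotypes differed by 0.05 on the log2 scale (standard error 0.35; adjusted p 1.00, edgeR's quasi-likelihood test), and the 95% interval of its fold ran from 0.543 to 1.97. The mean WT level of 2.64 ± 0.612 CPM (SD, n = 2) put Stmn1 at percentile 21.6 of the genes tested.

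The Stmn1 row is uncertain because most of its transcript is repeated elsewhere in the genome. A copy annotated as the pseudogene Gm11223, at chr4:69586235-69587204 of mm9, matched 970 bp of the 1060-base transcript at 99.5% identity with 5 differing bases and no gap. Another copy at chr17:70741937-70742897 matched at 93.5%. Of the 450 coding bases of Stmn1, 1 differed in the pseudogene: A274G counted from the first base of the start codon, or A444G from the first base of the transcript. The stretch around it shows how little separates the copies, with the differing base in capitals.
Stmn1 transcript: tcgaggagaacaacAacttcagcaagatg
Gm11223 copy: tcgaggagaacaacGacttcagcaagatg

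Of the 1011 windows of 50 bases in the Stmn1 transcript, 871 (86.2%) occurred at another place in the genome as well. The share was 89.4% for windows of 36 bases and 71.8% for windows of 100 bases. In Stmn2 the share was 0.428% at 36 bases and 0 at 50 and 100, and in Stmn3 and Stmn4 it was 0 at all 3 lengths. How the counting treated reads that match several places is not given in the sources used here, and counts of Gm11223 were not analysed here. The low Stmn1 counts and this repetition were found together, and whether the counting lowered them was not tested.

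The neighbours of the other members were read in the same way. Beside Stmn2, the transcription factor gene Hey1, 101758 bp away, was at -0.12 on the log2 fold change (standard error 0.31) and the cytokine gene Il7 at 0.33 (standard error 0.56). Beside Stmn4, Trim35 was at 0.46 (standard error 0.20), with an adjusted p of 0.836 in edgeR's quasi-likelihood test, and Adra1a was too low to be tested. Beside Stmn1, Paqr7 was at 0.12 (standard error 0.36) and 1700021N21Rik was too low to be tested. None of the neighbours passed the test.

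Dividing by exon length allows the members to be compared with each other. On the scale of CPM per kilobase of exon, Stmn2 was at 65.3 and 101 in WT and at 63.0 and 83.5 in Rest-/- ESCs. Stmn3 was at 10.6 and 9.76 in WT and at 57.5 and 65.5 in Rest-/- ESCs. In WT ESCs the levels of Stmn2 and Stmn3 were well apart, and in Rest-/- ESCs their ranges overlapped. Stmn4, at 0.472 and 3.70 in WT and 1.43 and 3.23 in Rest-/- ESCs, and Stmn1, at 1.60 and 1.15 in WT and 1.57 and 1.27 in Rest-/- ESCs, came last in both genotypes. The ranges of Stmn1 and Stmn4 overlapped, so their order was not resolved, and the place of Stmn1 rests on its uncertain counts.

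The shares of the members take the uncertain Stmn1 counts as they stand. So counted, Stmn2 made up 83.7% and 87.4% of the family's RNA per kilobase in WT, against 51.0% and 54.4% in Rest-/- libraries. The share of Stmn3 was 13.7% and 8.43% in WT, against 46.6% and 42.7% in Rest-/- libraries, so that, as counted, 1 member made up most of the family in WT libraries and 2 members shared nearly all of it in Rest-/- libraries. The ratio of Stmn2 to Stmn3 was 6.13 and 10.4 in WT, against 1.09 and 1.28 in Rest-/- libraries, and no scaling between libraries can alter it. On the log2 scale the ratio of Stmn3 to Stmn2 differed by 2.75 between the genotypes, with a two-sided exact permutation p of 0.333, the smallest that 2 against 2 libraries allow. The summed level of the family was 78.0 and 116 in WT and 123.5 and 153 in Rest-/- ESCs. These values did not overlap, and the same separation was found for 16.5% of the genes tested. From the WT to the Rest-/- mean, Stmn3 went from 10.2 to 61.5 and Stmn2 from 83.2 to 73.2 CPM per kilobase. The higher sum was thus not shared by all members.

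**Figure D4:**
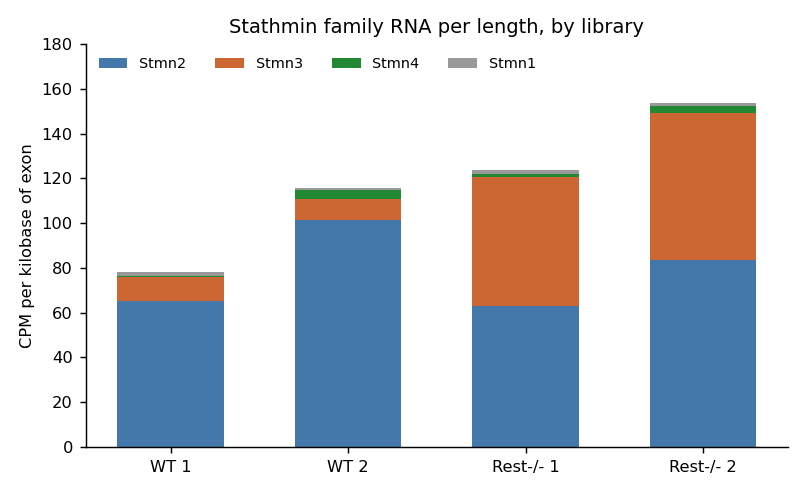
Summed level of the 4 stathmin genes in each library, in CPM per kilobase of exon, stacked by gene. Stmn2 (blue) makes up 83.7% and 87.4% of the WT bars and 51.0% and 54.4% of the Rest-/- bars, the rest of which is mostly Stmn3 (orange). The Stmn1 counts are uncertain because most of its transcript is repeated in the genome.

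The profiles of the members were also compared with those of all genes tested, as the Euclidean distance between log2(CPM + 0.5) values of the 4 libraries after each gene's mean was subtracted. The 3 genes nearest to Stmn3 were Scg2, which encodes the neurosecretory granule protein secretogranin II, at 0.124, Cubn, which encodes the endocytic receptor cubilin, at 0.160, and Gm6724 at 0.171. The counts of Scg2 were 1 and 0 in WT against 54 and 54 in Rest-/- libraries, and those of Cubn 72 and 52 against 354 and 309. Scg2 and Gm6724 were under the floor of 3 counts in both WT libraries, so their distances depend on the added 0.5, and their fitted log2 fold changes of 6.69 and 7.04, which depend on the prior count, were larger than that of Stmn3. The nearest to Stmn2 were LOC100040259 at 0.0306, Smad3 at 0.0463 and Ccni at 0.0491, which all had their highest level in WT replicate 2. Stmn1 lay nearest to Txnl1, Rbbp6 and Sfrs7, at 0.0179 to 0.0235, and Stmn4 nearest to Phyhip, Cnn1 and Lipg, at 0.235 to 0.310. The members were farther from each other than this, from 0.895 between Stmn1 and Stmn2 to 2.78 between Stmn3 and Stmn4. With 4 libraries many genes fall close by, so these distances are descriptions.

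The partners and regulators of stathmins were described from lists of genes, and none of their members passed edgeR's quasi-likelihood test in either direction. Of the tubulins, which stathmins bind, 14 of 15 genes were tested, 6 with a log2 fold change above 0 and 8 below, with a median of -0.11. Among those with a mean of at least 1 CPM in either genotype, the limit also used for the extremes of each list below, they ran from Tubb6 at 0.63 (standard error 0.40) to Tuba3a at -0.83 (standard error 0.29), and Tuba3a shares near-identical coding sequence with Tuba3b. Of the kinases and phosphatases that act on stathmins, all 21 were tested, 10 above 0 and 11 below, with a median of -0.01. Camk2a, a calcium-dependent kinase of neurons, had the largest positive value above that limit at 0.78 (standard error 0.34) and Camk2b the largest negative at -0.37 (standard error 0.26). Of the 20 palmitoyl transferases listed, from the enzyme family that lipidates the membrane-bound stathmins, 10 were above 0 and 10 below, from Zdhhc8 at 0.25 to Zdhhc9 at -0.65. The list leaves out 4 genes of that family, of which 1 was tested: Zdhhc22, singled out after its values were seen, had no count in WT and 13 and 11 counts in Rest-/- libraries, with an adjusted p of 0.329 in edgeR's quasi-likelihood test.

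The folding cofactors of tubulin had 2 of 7 values above 0, from Tbcc at 0.11 to Tbcd at -0.26. Other microtubule destabilizers, such as severing enzymes and depolymerizing kinesins, had 3 of 14 tested values above 0 and a median of -0.08. The severing protein Fign was at 0.77 (standard error 0.37) and the kinesin Kif19a at -0.86 (standard error 0.43), while Kif2b was at 0 counts in all libraries. Of 23 tested stabilizers and plus-end proteins, 13 were above 0, from the doublecortin-like kinase Dclk1 at 1.04 (standard error 0.77) to Mapt, which encodes tau, at -0.48 (standard error 0.16). At an unadjusted p under 0.05 these 6 lists held 0 higher values, beside 3.85% of all genes tested, and 3 lower values, those of Zdhhc9, Tuba3a and Mapt, beside 2.86%.

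Markers of the cell types that the cultures could hold were compared between the same libraries. Summed over 12 pluripotency markers, the level was 5616 and 5569 CPM in WT and 4983 and 5265 CPM in Rest-/- ESCs, with 7 of 12 above 0 on the log2 fold change, from Dppa3 at 0.59 down to Zfp42, a marker of undifferentiated ESCs, at -1.36 (standard error 0.18, adjusted p of 0.179 in edgeR's quasi-likelihood test). The 18 neural markers summed to 315 and 425 CPM in WT and 503 and 537 CPM in Rest-/- ESCs, with 10 of 13 tested above 0, from Nefm, a neurofilament gene, at 2.26 to Pax6 at -0.75. Neurog1, Neurog2, Neurod4 and Dcx were among the markers too low to be tested, and Neurog2 was at 0 in both WT libraries. The 10 primitive endoderm markers, with 10 of 10 above 0, from Gata6 at 2.26 to Sparc at 0.28 among those of at least 1 CPM, summed to 425 and 496 CPM in WT and 671 and 644 CPM in Rest-/- ESCs. The 12 feeder fibroblast markers summed to 45.7 and 44.9 CPM in WT and 138 and 41.4 CPM in Rest-/- ESCs, with 8 of 10 tested above 0, from Postn at 2.35 (standard error 1.46) to Thy1 at -0.18, and with Lum at 0 throughout. None of these marker genes passed the test. At an unadjusted p under 0.05, 3 of 13 neural markers (Elavl3, Nefl and Nefm) and 3 of 10 primitive endoderm markers (Gata6, Pdgfra and Dab2) were higher and 3 of 12 pluripotency markers (Zfp42, Nanog and Klf4) were lower, beside 3.85% and 2.86% of all genes.

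Like Stmn3, the neural and primitive endoderm sums were higher in both Rest-/- libraries than in both WT libraries, and the part of such cells in the Stmn3 difference was not tested. Of the neural markers, 2 (Nefm and D11Bwg0517e, also called Rbfox3) belong to the genes with a full RE1 match within 2 kb. The other tested ones do not. On the log2 fold change they ran from Elavl3 (1.67) and Nefl (1.29) through Tubb3 (0.01) to Pax6 (-0.75). Whether RE1 matches bear on the neural sum was not tested. The feeder sum was high in 1 Rest-/- library, replicate 1, and the part of feeder cells in the Stmn3 difference was not tested. In bulk RNA, fewer cells that express a gene and less of its RNA per cell cannot be told apart. The libraries are called biological replicates, but nothing used here says that they came from separate cultures, so the p-values measure the spread between these 2 libraries per genotype alone.

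**Figure D5:**
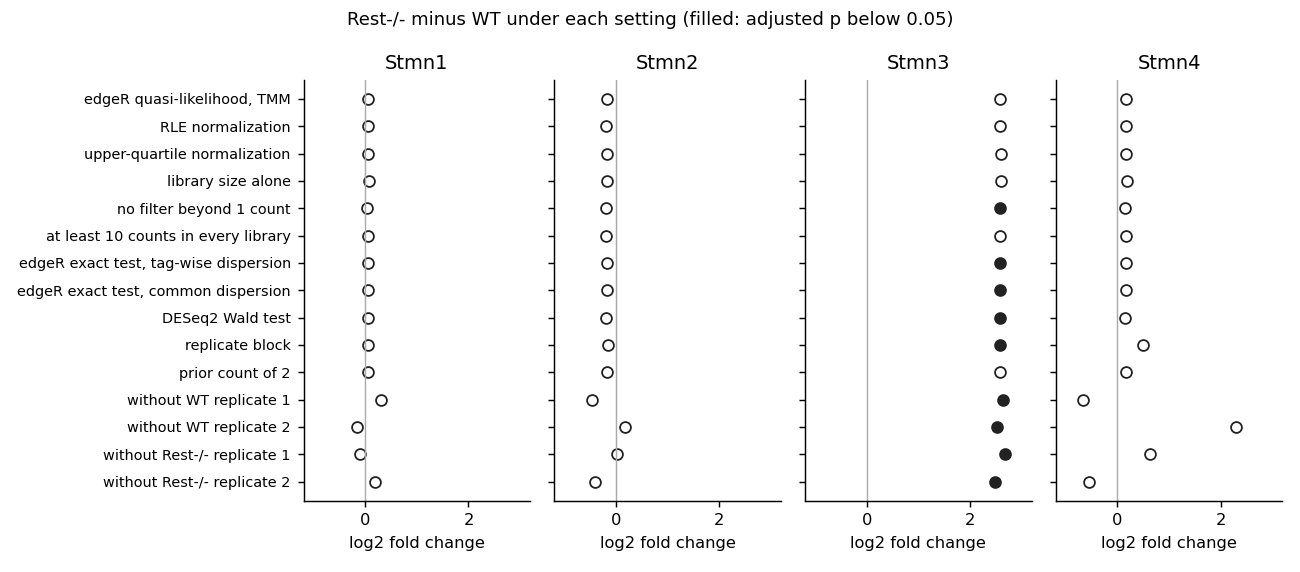
Log2 fold change (Rest-/- minus WT) of the 4 stathmin genes under each processing setting, with filled circles where the adjusted p is below 0.05. Stmn3 stays between 2.49 and 2.69 throughout; Stmn1, Stmn2 and Stmn4 lie on both sides of 0 when single libraries are left out.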

How the data were processed

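Total RNA of 2 WT and 2 Rest-/- mouse ESC libraries was sequenced after indexed TruSeq preparation and pooling of the 4 libraries at equal concentration. The values the authors deposited are whole-number counts per gene without normalization, made with Subread and featureCounts on mm9 per the submitters' processing notes. The annotation, the use of strand and the handling of reads with several matches are not given in the sources used here. Rows without an identifier (368) held no values and were left out.

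Counts were compared in R 4.3.3 with edgeR 4.0.16 by an unpaired quasi-likelihood test with TMM scaling, the filterByExpr filter and a prior count of 0.125, and a gene was called at an adjusted p under 0.05 (Benjamini-Hochberg, 15444 genes). Genotypes came from the labels. Gene positions are those of GENCODE M1 on the NCBIM37 (mm9) assembly; levels per kilobase used the union of a gene's exons. Sequences were read from that genome, and copies of the transcripts covering 50% or more of their length at a minimum identity of 90% were sought with BLAST+ 2.17.0. The study's list of REST-bound regions that hold repeated RE1 motifs, read in part, was used to look up the motif sites alone. Tests and the motif search were tested on simulated data.

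The members and gene lists were chosen with earlier results of these data known. The genes named are the members, their neighbours, the 3 genes nearest in profile to each, Rest, and from each list the genes past the threshold or else the largest positive and negative log2 fold change among genes with a mean of at least 1 CPM; all other genes named were chosen after their values were seen. A few genes that this rule would name are not reported here. Alternatives were other scalings and filters, a prior count of 2, edgeR's exact tests, a fit with the replicate number as a block, DESeq2 1.42.0 and leaving out each library in turn. The ratio of Stmn3 to Stmn2, the 2 kb window for the motif and the limit of 1 CPM for genes with a match were added after the data were seen.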

Additional observations from a re-analysis of the deposited data

How the results depend on the processing

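The number of genes called depended strongly on the processing. Genes called higher in Rest-/- numbered 8 in the quasi-likelihood test, 49 with no filter, 3 with at least 10 counts in every library, 179 (tag-wise) and 246 (common dispersion) in the exact tests of edgeR, 180 in DESeq2 and 54 to 88 with 1 library left out. Genes called lower numbered 1, and under the same alternatives 4, 0, 54, 97, 58 and 6 to 25; the cause was not tested. With a library left out, the lone library of its genotype is assumed to vary like the other genotype's.

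Stmn3 missed the threshold in the quasi-likelihood test under all 4 scalings, and its log2 fold change passed it with no filter (2.58, adjusted p 0.0197), in the exact tests (2.59 with both dispersions, adjusted p 2.87e-12 and 2.55e-07), in DESeq2 (2.58, adjusted p 5.86e-19) and with any library left out (2.49 to 2.69, adjusted p 0.00329 to 0.0112). RLE, upper-quartile and library-size scaling, at least 10 counts in every library and a prior count of 2 gave an adjusted p of 0.0672 to 0.0948. The other members passed under no setting, and their direction turned when single libraries were left out. Stmn1 was at -0.17 without WT replicate 2 and -0.11 without Rest-/- replicate 1 (range -0.17 to 0.30). Stmn2 was at 0.17 and 0.0089 without the same libraries (range -0.47 to 0.17). Stmn4 was at -0.67 without WT replicate 1 and -0.54 without Rest-/- replicate 2 (range -0.67 to 2.30).

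The libraries are numbered 1 and 2 in each genotype, and nothing states that a number marks a shared day. Deviations of same-numbered libraries from their genotype means correlated at 0.807 over 15444 genes. With the replicate number as a block in edgeR's quasi-likelihood test, 1308 genes were called higher and 1313 lower. In that fit the log2 fold change of Stmn3 was 2.59 (adjusted p 3.86e-06) and that of Stmn4 0.49 (standard error 0.38, adjusted p 0.425). Stmn2 was at -0.17 (standard error 0.07, adjusted p 0.142) and Stmn1 at 0.05 (standard error 0.24, adjusted p 0.909) in the same fit.

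With the longest transcript in place of the union of exons, Stmn1 was at 2.49 CPM per kilobase in WT and 2.57 in Rest-/- ESCs. Low counts limit Stmn1 and Stmn4, and 2 libraries per genotype limit every test.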
